A study of Mus musculus with 14 samples.

Results

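Male germ cells that had already lost the histone demethylase gene Jmjd1a were compared, at postnatal day 3 (P3), with and without the remaining copy of its paralog Jmjd1b. The animals without either gene (P3 DKO) were Vasa-Cre; Jmjd1a-/-; Jmjd1b-/-, and those they are set against (P3 Jmjd1aKO) were Vasa-Cre; Jmjd1a-/-; Jmjd1b-/+, so both groups lack Jmjd1a and carry the Cre, and they differ in 1 copy of Jmjd1b. The loss of the same copy was also measured where 1 copy of Jmjd1a was left, in P3 Jmjd1bKO (Vasa-Cre; Jmjd1a-/+; Jmjd1b-/-) against P3 Ctrl (Vasa-Cre; Jmjd1a-/+; Jmjd1b-/+). All were C57BL/6 mice, RNA came from postnatal male germ cells of the testis, and each group had 2 libraries, of 14 in the series. P7 DKO and P7 Ctrl (the genotypes of P3 DKO and P3 Ctrl at day 7) and P3 WT, labelled WT, entered the fit and are quoted as levels. Vasa-Cre acts in the germline from before birth, and no sort is named in the labels. They do not say whether the 2 replicates came from separate animals, so p-values measure the spread between these libraries, which may be technical.

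Jmjd1a (Kdm3a) and Jmjd1b (Kdm3b) encode KDM3 demethylases, which remove the mono- and dimethyl marks from lysine 9 of histone H3 (H3K9). The marks are placed in euchromatin mainly by the G9a (Ehmt2) and GLP (Ehmt1) methyltransferases and are associated with silent genes. Around P3 the male germ cells of the mouse leave mitotic arrest, resume division and give rise to spermatogonia, some of which become stem cells. Both enzymes act on the same marks, and the design allows the question of what loss of Jmjd1b changes once Jmjd1a is gone.

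Levels are RPKM, reads per kilobase of transcript scaled to the mapped reads of the library. A gene was tested if it reached 1 RPKM in 2 or more of the 4 libraries of P3 DKO and P3 Jmjd1aKO, which held for 14106 of 24340 genes. Changes are differences of log2(RPKM + 1), P3 DKO minus P3 Jmjd1aKO, with the standard error and p from limma over all 14 libraries, two-sided and adjusted by Benjamini-Hochberg over the genes tested. "Passed" means an adjusted p under 0.05. Because of the added 1, these changes understate the fold change of low genes. Depth was estimated from the steps between low RPKM values, at 45700000 and 50900000 fragments in P3 DKO and 39500000 and 26700000 in P3 Jmjd1aKO.

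One library stood apart. Markers of Sertoli cells, the somatic cells of the tubule, summed to 557 and 578 RPKM in P3 DKO and to 559 and 1886 RPKM in P3 Jmjd1aKO replicates 1 and 2, over 28 genes of which none was at 0 in any of the 4. Amh, the hormone of immature Sertoli cells, was at 3.24 and 5.91 RPKM in P3 DKO and at 3.33 and 108 RPKM in P3 Jmjd1aKO. Stromal, Leydig and erythroid markers summed to 95.3 to 98.3, 68.8 to 78.3 and 4.84 to 5.26 RPKM in P3 DKO. In P3 Jmjd1aKO replicate 2 they summed to 313, 169 and 35.4 RPKM, and in replicate 1 to 94.6, 82.6 and 4.61 RPKM. The 22 germ cell genes summed to 1948 and 1819 RPKM in P3 DKO and to 1844 and 1671 RPKM in P3 Jmjd1aKO. Of the 4 libraries, that sum was lowest in P3 Jmjd1aKO replicate 2. Ddx4 was at 235 and 217 RPKM in P3 DKO and 208 and 224 RPKM in P3 Jmjd1aKO. Other members moved in both directions, such as Nanos3 (log2 change -1.20) and Elavl2 (log2 change 0.53). P3 Jmjd1bKO replicate 2 was likewise high in Sertoli transcripts, at 2248 RPKM, against 599 RPKM in its replicate 1 and 540 to 574 RPKM in P3 Ctrl. Log2 changes and list medians are therefore also given without P3 Jmjd1aKO replicate 2 where they move by over 1.5 times. For log2 changes this holds for genes named by the rule given under processing. Counts of genes within lists are given with all libraries. In bulk RNA, fewer cells of a type and less RNA per cell cannot be told apart.

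The targeted gene was lower in P3 DKO, but the difference did not pass. Kdm3b (chromosome 18, 34777047 to 34838660, GRCm38) was at 4.26 and 4.48 RPKM in P3 DKO, against 9.81 and 13.9 RPKM in P3 Jmjd1aKO. Both P3 DKO libraries lay below both P3 Jmjd1aKO libraries, with a log2 change of -1.24 ± 0.21 (SE, n = 2 each, limma adjusted p = 0.256). It passed in 1 alternative, with the Sertoli level as a covariate (log2 change -1.03, limma adjusted p = 0.0486). The same loss beside 1 copy of Jmjd1a gave 4.72 and 7.51 RPKM in P3 Jmjd1bKO and 10.2 and 13.5 RPKM in P3 Ctrl, a log2 change of -0.87 ± 0.21 (limma adjusted p = 0.971). The 2 changes differed by -0.37 ± 0.30 (limma adjusted p = 0.525).

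Kdm3a, deleted in both groups, was not absent in either. It was at 12.1 and 14.3 RPKM in P3 DKO and 9.83 and 9.84 RPKM in P3 Jmjd1aKO, and at 26.1 and 25.4 RPKM in P3 Jmjd1bKO and 28.4 and 26.3 RPKM in P3 Ctrl. The P3 DKO libraries lay above the P3 Jmjd1aKO libraries by 0.39 ± 0.11 on the log2 scale (limma adjusted p = 0.374), which did not pass. The third family member, Jmjd1c, was at 40.3 and 34.4 RPKM in P3 DKO and 45.3 and 32.8 RPKM in P3 Jmjd1aKO, so that the groups overlapped. Which exons were deleted is not given in the sources used here, and a value per gene does not measure the deletion itself.

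**Figure D1:**
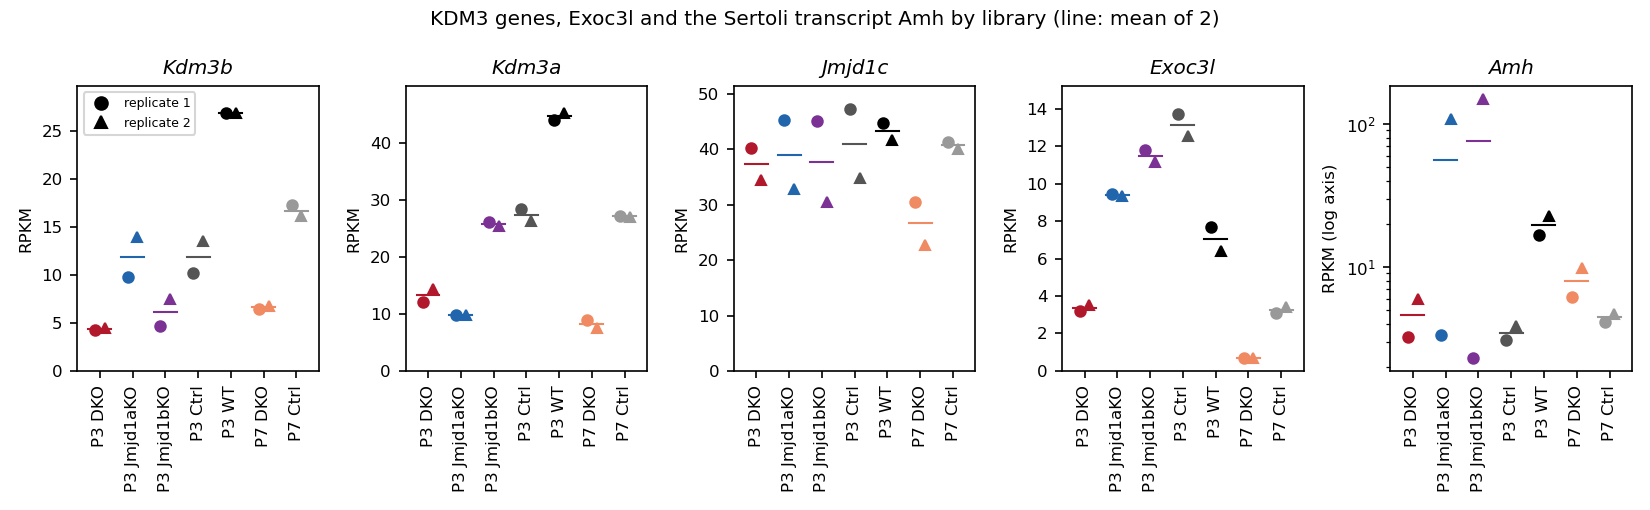
RPKM of Kdm3b, Kdm3a, Jmjd1c, Exoc3l and the Sertoli transcript Amh (log axis) in each of the 14 libraries; circles and triangles are replicates 1 and 2 and lines are means of 2. Kdm3b sits at 4.26 and 4.48 RPKM in P3 DKO, below both P3 Jmjd1aKO libraries, and Amh stands at 108 RPKM in 1 of the 2 P3 Jmjd1aKO libraries.

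Across the transcriptome few genes passed. Of the 14106 tested, 5 passed (0.0354%), 1 higher and 4 lower in P3 DKO, with Mir345 higher and Mir6898, Mir23a and Exoc3l among the lower. Before adjustment, 1683 genes (11.9%) had a p under 0.05, of which 916 were higher and 767 lower. That count rested on single libraries, at 423 without P3 Jmjd1aKO replicate 2, 3097 without its replicate 1 and 609 or 1294 where the second or the first P3 DKO library was left out. The median change of all genes was 0.01 and the median standard error 0.18, so that for a typical gene the 95% interval spanned 0.41 to either side. Both P3 DKO libraries lay above both P3 Jmjd1aKO libraries for 3517 genes (24.9%) and below them for 2855 (20.2%). These shares are the background for the counts of such genes within each list below, and 11.9% is that for counts at an unadjusted p under 0.05. The correlation of log2(RPKM + 1) over genes was 0.971 between the P3 DKO replicates and 0.950 between the P3 Jmjd1aKO replicates. P3 Jmjd1aKO replicate 1 correlated with the P3 DKO replicates at 0.972 and 0.968, above its value with its own replicate 2, while replicate 2 did so at 0.939 and 0.944.

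**Figure D2:**
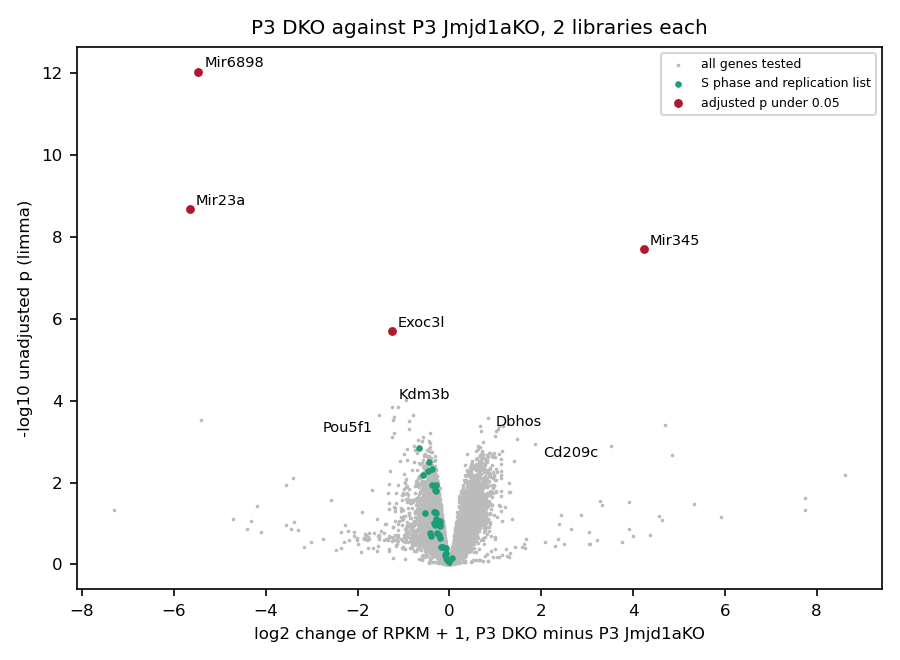
Change of log2(RPKM + 1), P3 DKO minus P3 Jmjd1aKO (x), against -log10 of the unadjusted limma p (y) for the genes tested; red marks Mir345, Mir6898, Mir23a and Exoc3l, which passed, and green the 34 members of the S phase and replication list. The 3 miRNA loci are listed at 0 in both libraries of 1 group, and the green points lie at or left of 0 but for 1.

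Exoc3l, which encodes a protein related to a subunit of the exocyst (the complex that tethers secretory vesicles to the plasma membrane), passed with reads in all 4 libraries. It lies on chromosome 8, 105289924 to 105296101 (GRCm38). It was at 3.20 and 3.52 RPKM in P3 DKO and at 9.43 and 9.36 RPKM in P3 Jmjd1aKO. The groups lay well apart with little spread inside each, and Exoc3l fell by 1.25 ± 0.13 on the log2 scale (SE, n = 2 each, limma adjusted p = 0.00569).

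The other groups show where that level lies. Exoc3l was at 11.8 and 11.2 RPKM in P3 Jmjd1bKO and 13.7 and 12.5 RPKM in P3 Ctrl, with a log2 change of -0.18 ± 0.13 (limma adjusted p = 0.971), which missed the threshold. At day 7 it was at 0.679 and 0.708 RPKM in P7 DKO and 3.11 and 3.42 RPKM in P7 Ctrl. P3 DKO was therefore the lowest of the 5 day 3 groups, with P3 WT next at 7.68 and 6.39 RPKM. The fall in P3 DKO differed from the change in P3 Jmjd1bKO by -1.08 ± 0.18, which did not pass either (limma adjusted p = 0.302). The log2 change of Exoc3l was -1.20 to -1.52 in every alternative run, but its adjusted p was 0.0979 without P3 Jmjd1aKO replicate 2, 0.089 without P3 DKO replicate 1, 0.122 without both libraries high in Sertoli transcripts and 0.258 with the 4 libraries alone.

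Of the genes that passed, 3 are miRNA hairpin loci, each listed at 0 in both libraries of 1 group, which can be a failed estimate. For these the mature sequences (RefSeq, GRCm38.p6) identify the entry. The library kit was for mRNA, so the RPKM of a hairpin is not a level of mature miRNA. Capitals mark the seed, bases 2 to 8 from the 5′ end, and no 2 of the 6 seeds are the same.
mmu-miR-345-5p: gCUGACCCcuaguccagugcuu
mmu-miR-345-3p: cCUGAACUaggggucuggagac
mmu-miR-23a-5p: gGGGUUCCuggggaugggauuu
mmu-miR-23a-3p: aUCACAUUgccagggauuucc
mmu-miR-6898-5p: uGUAAGGGgagaugcagggagc
mmu-miR-6898-3p: aAGUCUCUuuguaccuucucu

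Mir345 (chromosome 12, 108836973 to 108837068) was at 26.3 and 12.0 RPKM in P3 DKO and listed at 0 in both P3 Jmjd1aKO libraries (limma adjusted p = 6.93e-05). It lies within Slc25a47 on the same strand, which was at 2.31 and 1.66 RPKM in P3 DKO and 2.04 and 1.82 RPKM in P3 Jmjd1aKO. Mir6898 (chromosome 1, 36348682 to 36348758) was listed at 0 in both P3 DKO libraries and stood at 46.2 and 40.4 RPKM in P3 Jmjd1aKO (limma adjusted p = 6.45e-09). Its host Kansl3, on the same strand, was at 19.2 and 18.1 RPKM in P3 DKO and 20.1 and 24.9 RPKM in P3 Jmjd1aKO. Neither host gene was at 0 in any of the 4 libraries. Over the 14 libraries, Mir6898 was listed at 0 in all but those of P3 Jmjd1aKO, and Mir345 in all but those of P3 DKO.

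Mir23a (chromosome 8, 84208518 to 84208592), which overlaps no other gene of the annotation, was listed at 0 in P3 DKO and stood at 54.1 and 45.2 RPKM in P3 Jmjd1aKO (limma adjusted p = 9.76e-06). It was also listed at 0 in both P3 Jmjd1bKO libraries, against 112 and 50.8 RPKM in P3 Ctrl, and was the 1 entry of 14106 (0.00709%) to pass in that comparison (limma adjusted p = 1.09e-05). Mir23a was listed at 0 in P3 WT and in all 4 day 7 libraries too. In all, 20 entries tested were at 0 in both libraries of 1 group and above 0 in both of the other, most of them small RNA loci. Leaving such entries out (added once the values were known), Exoc3l alone passed (limma adjusted p = 0.028).

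Below the threshold, the largest positive changes among genes with unadjusted p under 0.05, groups apart and a mean of 5 RPKM or more were led by Cd209c, a C-type lectin of the DC-SIGN family. It was at 374 and 137 RPKM in P3 DKO and 78.1 and 48.0 RPKM in P3 Jmjd1aKO, with a log2 change of 1.87 ± 0.42 (limma adjusted p = 0.374). It was at 9.15 and 9.90 RPKM in P3 Jmjd1bKO, 12.7 and 6.78 RPKM in P3 Ctrl, and 1669 and 1505 RPKM in P7 DKO. The order of levels thus ran from P3 Ctrl and P3 Jmjd1bKO, which overlap, to P3 Jmjd1aKO, P3 DKO and P7 DKO, which do not overlap with each other.

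The other members of the Cd209 family in the files did not reach the filter, so Cd209c was the 1 tested of 7. Dbhos, the opposite-strand transcript of the dopamine beta-hydroxylase gene, had the same order. It was at 19.2 and 8.21 RPKM in P3 DKO and 4.90 and 3.12 RPKM in P3 Jmjd1aKO (log2 change 1.47 ± 0.31, limma adjusted p = 0.374), against 0.621 to 0.883 RPKM in the libraries of P3 Jmjd1bKO and P3 Ctrl and 68.5 and 77.3 RPKM in P7 DKO. Whether the authors counted by strand is not given in the sources used here, so reads of Dbhos and of its partner cannot be told apart. Without P3 DKO replicate 2, the lower of the 2 for both, Cd209c and Dbhos passed, at log2 changes of 2.59 and 2.04 (limma adjusted p = 0.0441 and 0.027). Without P3 DKO replicate 1 their log2 changes were 1.14 and 0.90 and neither passed (limma adjusted p = 0.459 and 0.422).

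The next 7 positive changes were smaller. Nol4, which encodes a nucleolar protein, was at 11.6 and 9.80 RPKM in P3 DKO and 5.21 and 3.65 RPKM in P3 Jmjd1aKO, with a log2 change of 1.12 ± 0.31. Cldn18 (a tight junction claudin), C3 (complement), Perp (a desmosome protein), Fndc3c1, Arhgap36 and Dnajc6 (auxilin, of clathrin uncoating) had log2 changes of 1.09 to 1.29. For these 6 the P3 Jmjd1aKO replicates themselves lay far apart, as for C3, at 12.8 and 15.0 RPKM in P3 DKO and 9.95 and 2.72 RPKM in P3 Jmjd1aKO. Without replicate 2 their log2 changes were 0.39 to 0.65, while that of Nol4 was 0.91. None of the 7 passed.

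Among the negative changes that did not pass, Fxyd3, a regulator of the sodium pump, had the most even libraries. It was at 3.09 and 3.09 RPKM in P3 DKO and 11.4 and 10.1 RPKM in P3 Jmjd1aKO (log2 change -1.52 ± 0.27, limma adjusted p = 0.29), and it passed with the Sertoli level as a covariate (log2 change -1.73, limma adjusted p = 0.0453). Sphk1, the sphingosine kinase, was at 11.7 and 17.8 RPKM in P3 DKO and 31.4 and 45.2 RPKM in P3 Jmjd1aKO. Its log2 change was -1.32 ± 0.42, and -1.07 without P3 Jmjd1aKO replicate 2.

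Folr1 (a folate receptor), Snhg9 (a snoRNA host transcript), Xaf1 and Ifitm2 (both interferon-induced) had log2 changes of -1.30 to -1.69, and of the 4 libraries each was highest in P3 Jmjd1aKO replicate 2, the one high in Sertoli transcripts. Ifitm2, for one, was at 9.81 and 11.02 RPKM in P3 DKO and 16.1 and 45.2 RPKM in P3 Jmjd1aKO. Without that library the log2 changes were -0.64 for Snhg9, -0.59 for Ifitm2, -0.52 for Xaf1 and -1.17 for Folr1. The part of the Sertoli RNA in them was not tested beyond this.

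**Figure D3:**
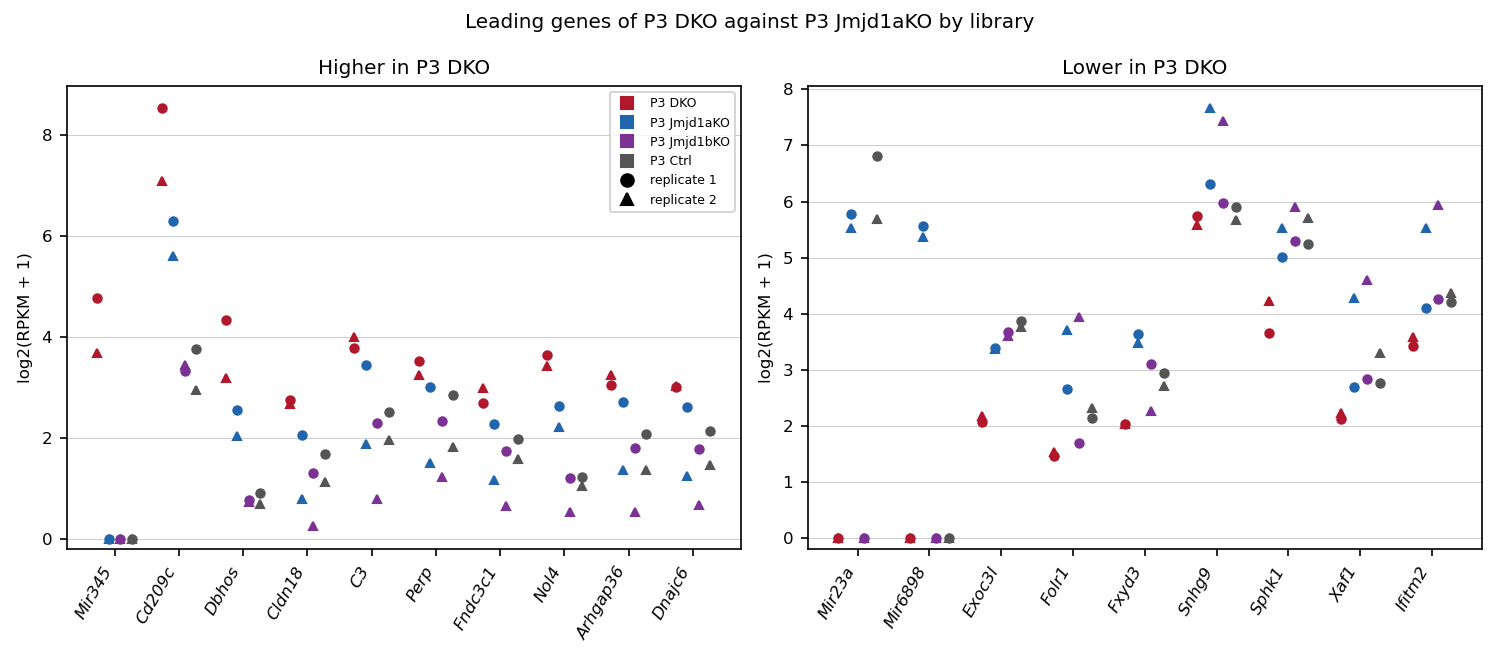
Level as log2(RPKM + 1) of the 10 leading higher and 9 of the leading lower genes in the 8 libraries of P3 DKO, P3 Jmjd1aKO, P3 Jmjd1bKO and P3 Ctrl; circles and triangles are replicates 1 and 2. The blue triangle (P3 Jmjd1aKO replicate 2) lies far from the blue circle for C3, Perp, Xaf1 and Ifitm2, and close to it for Exoc3l and Fxyd3.

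The list of S phase and replication genes (helicase, polymerase, nucleotide synthesis and licensing factors) lay slightly lower in P3 DKO, gene after gene, without any single gene passing. None of its 34 members passed, and 9 had an unadjusted p under 0.05, all lower. In 23 of 34 (67.6%) both P3 DKO libraries lay below both P3 Jmjd1aKO libraries, against 20.2% of all genes tested, and in 0 they lay above, against 24.9%. The median change was -0.29, with 33 of 34 below 0, against a median of 0.01 over all genes.

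Tk1, the thymidine kinase of the salvage pathway, was at 39.9 and 29.6 RPKM in P3 DKO and 51.9 and 58.0 RPKM in P3 Jmjd1aKO (log2 change -0.66 ± 0.15, limma adjusted p = 0.374). E2f1, the transcription factor that drives S phase genes, was at 36.9 and 34.6 RPKM in P3 DKO and 46.9 and 51.6 RPKM in P3 Jmjd1aKO (log2 change -0.45 ± 0.12, limma adjusted p = 0.374). In both the groups lay apart. The summed level of the 34 was 1810 and 1643 RPKM in P3 DKO, 1943 and 2235 RPKM in P3 Jmjd1aKO, 2609 and 2905 RPKM in P3 Jmjd1bKO and 2375 and 2848 RPKM in P3 Ctrl.

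Among the settings run, the choice of libraries moved the size of the S phase median. Without P3 Jmjd1aKO replicate 2 the median was -0.14, with 31 of 34 below 0, and over 19 settings it ran from -0.38 to -0.14. Under quantile normalization it was -0.20. Where 1 copy of Jmjd1a was left, the list's median change on loss of Jmjd1b was 0.06 with all libraries. These include P3 Jmjd1bKO replicate 2, also high in Sertoli transcripts, and the median without it was not computed. For Tk1 the changes in the 2 backgrounds differed by -0.95 ± 0.21, which did not pass (limma adjusted p = 0.302), and no test of a difference over the list was made.

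E2F factors bind short GC-rich words that follow a run of T in the promoters of many S phase genes. Promoters of 27 of the 34 list members were in the RefSeq table (250 bases before the start to 50 after it, GRCm38.p6), and 9 of them (33.3%) held TTTGGCGC, TTTCCCGC, TTTCGCGC or TTTGCCGC on either strand, against 433 of 10615 promoters of genes tested (4.08%) and 626 of 27025 in the table (2.32%). A match is a description of letters, not of binding. Shown are the promoters of Cdc6 (chr11:98907901-98908200), the matching gene with the lowest log2 change, and of Mcm5 (chr8:75109259-75109558), one of the next lowest. Both are on the + strand, with the matches in capitals, and the matches of Mcm5 overlap.
Cdc6 promoter: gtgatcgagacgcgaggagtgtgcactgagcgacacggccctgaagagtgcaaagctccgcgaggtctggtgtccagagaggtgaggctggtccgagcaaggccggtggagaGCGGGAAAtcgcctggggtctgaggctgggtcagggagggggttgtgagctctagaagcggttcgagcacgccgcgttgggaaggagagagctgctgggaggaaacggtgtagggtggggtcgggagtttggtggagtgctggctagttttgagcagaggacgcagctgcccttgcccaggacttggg
Mcm5 promoter: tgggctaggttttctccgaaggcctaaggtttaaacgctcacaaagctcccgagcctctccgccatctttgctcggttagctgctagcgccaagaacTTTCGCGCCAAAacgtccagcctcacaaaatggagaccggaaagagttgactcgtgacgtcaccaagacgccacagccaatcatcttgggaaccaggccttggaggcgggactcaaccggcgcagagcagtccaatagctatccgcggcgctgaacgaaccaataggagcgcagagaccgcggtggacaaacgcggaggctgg

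Cdc6, a licensing factor that loads the replicative helicase, was at 8.11 and 7.04 RPKM in P3 DKO and 11.2 and 10.5 RPKM in P3 Jmjd1aKO, a log2 change of -0.47 ± 0.13. Mcm5, a subunit of that helicase, was at 68.9 and 67.6 RPKM in P3 DKO and 79.7 and 99.0 RPKM in P3 Jmjd1aKO, a log2 change of -0.37 ± 0.12. In both the groups lay apart, and neither passed. The change of Mcm5 was smaller without P3 Jmjd1aKO replicate 2, the library with its highest level of these. The other 7 matching genes, Cdt1, Gins3, Mcm3, Mcm6, Mcm7, Pola1 and Pold1, had log2 changes of -0.38 to -0.05.

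G2 and mitosis genes had a like median in the 4 libraries but rested on 1 of them. None of 28 passed, with 1 higher and 1 lower at an unadjusted p under 0.05. Both P3 DKO libraries lay below both P3 Jmjd1aKO libraries in 6 (21.4%), near the background share. The median of -0.31 was -0.02 without P3 Jmjd1aKO replicate 2. The member higher at an unadjusted p under 0.05 was Cdc25b, the one with the smallest p of the list. It was at 20.6 and 19.7 RPKM in P3 DKO and 15.99 and 16.1 RPKM in P3 Jmjd1aKO (log2 change 0.31 ± 0.11). The lower was Ccnb2, at 42.7 and 35.7 RPKM in P3 DKO and 45.6 and 73.5 RPKM in P3 Jmjd1aKO. Cdk1, the mitotic kinase, was at 13.3 and 14.7 RPKM in P3 DKO and 15.5 and 31.4 RPKM in P3 Jmjd1aKO.

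The Rhox cluster, X-linked homeobox genes of the reproductive tract, had most members higher in P3 DKO. None of 12 members tested passed, and 1 had an unadjusted p under 0.05, higher. Both P3 DKO libraries lay above both P3 Jmjd1aKO libraries in 7 of 12 (58.3%), against 24.9% of all genes, and below them in 1, Rhox8. The median change was 0.17, and 0.17 to 0.25 over 19 settings.

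Rhox9 was at 9.60 and 11.2 RPKM in P3 DKO, 6.35 and 5.82 RPKM in P3 Jmjd1aKO, 3.38 and 2.52 RPKM in P3 Jmjd1bKO and 3.61 and 2.86 RPKM in P3 Ctrl (log2 change 0.68 ± 0.25, limma adjusted p = 0.383). Rhox10 was at 47.3 and 54.1 RPKM in P3 DKO and 39.1 and 41.9 RPKM in P3 Jmjd1aKO, a log2 change of 0.31 ± 0.19. Rhox8 is a gene of Sertoli cells and was at 1.22 and 1.34 RPKM in P3 DKO, against 1.45 and 36.7 RPKM in P3 Jmjd1aKO, with the high value in the library high in Sertoli transcripts (log2 change -2.08, and -0.11 without it). Several Rhox genes are near-identical copies, so the authors' counting may have split their reads.

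**Figure D4:**
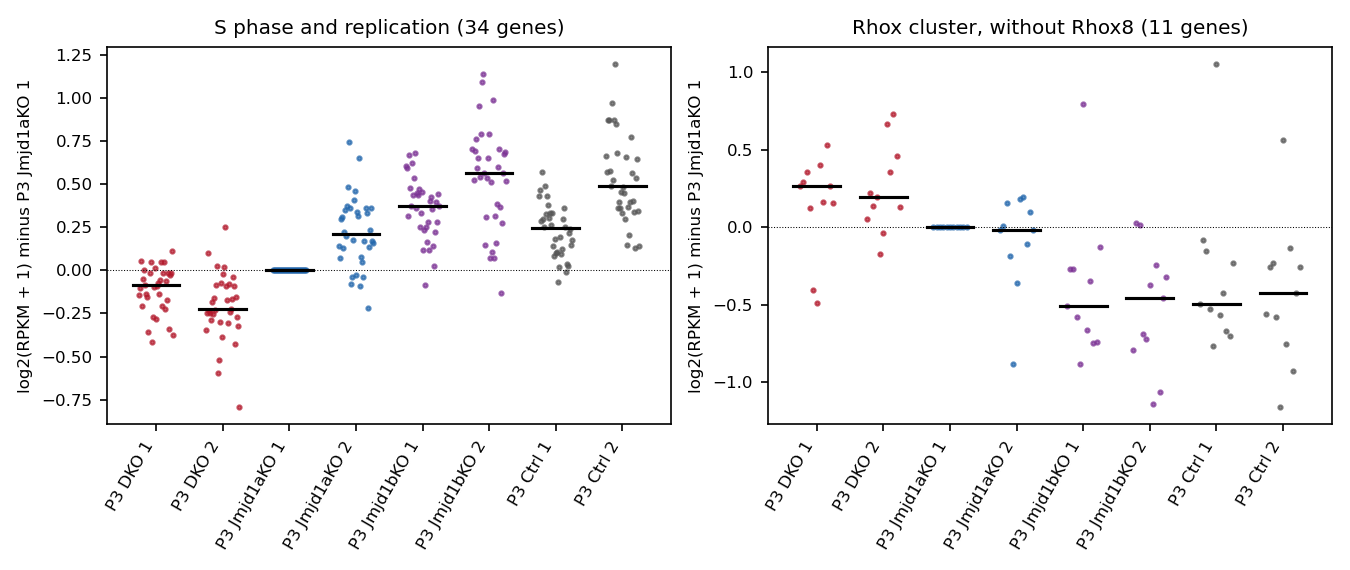
Level of each S phase and replication gene (left, 34 genes) and each Rhox gene but Rhox8 (right, 11 genes), as log2(RPKM + 1) minus its level in P3 Jmjd1aKO replicate 1, in 8 libraries; points are genes and black lines medians. The S phase medians of both P3 DKO libraries lie below 0 and those of the other libraries at or above it, and the Rhox medians of both P3 DKO libraries lie above those of the other 6.

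Genes of pluripotency and the spermatogonial states differed in both directions, and none passed. Pou5f1 (OCT4), which marks pluripotent cells and early germ cells, was at 58.2 and 70.2 RPKM in P3 DKO and 138 and 163 RPKM in P3 Jmjd1aKO. It stood at 131 and 122 RPKM in P3 Jmjd1bKO and 113 and 118 RPKM in P3 Ctrl, so P3 DKO lay apart from all 3. The log2 change was -1.22 ± 0.22 (limma adjusted p = 0.29), and Pou5f1 passed when the fit held the 10 day 3 libraries alone (limma adjusted p = 0.0279). Otx2, a homeobox gene of the epiblast, was higher, at 2.02 and 5.16 RPKM in P3 DKO and 1.37 and 0.912 RPKM in P3 Jmjd1aKO, with the P3 DKO replicates far apart (log2 change 1.02 ± 0.28, limma adjusted p = 0.374).

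Nanos3, an RNA-binding protein needed for survival of primordial germ cells, was at 6.41 and 7.59 RPKM in P3 DKO and 16.7 and 17.97 RPKM in P3 Jmjd1aKO, a log2 change of -1.20 ± 0.22 (limma adjusted p = 0.29). Plvap, an endothelial protein that also marks some undifferentiated spermatogonia, was at 7.20 and 9.38 RPKM in P3 DKO and 16.7 and 21.3 RPKM in P3 Jmjd1aKO, a log2 change of -1.11 ± 0.19 (limma adjusted p = 0.256). Pecam1, another endothelial gene, was at 8.93 and 7.86 RPKM in P3 DKO and 12.9 and 5.71 RPKM in P3 Jmjd1aKO, where the groups overlap. Tek, also endothelial, lay apart and higher, at 3.49 and 4.04 RPKM in P3 DKO and 2.45 and 1.27 RPKM in P3 Jmjd1aKO. Of 13 endothelial genes tested, 5 (38.5%) lay apart and higher in P3 DKO, against 24.9% of all genes tested. Apart and lower were 3 (23.1%), against 20.2%. Neither Nanos3 nor Plvap passed.

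The spermatogonial lists had medians near 0. Of 32 stem and undifferentiated spermatogonia genes none passed, with 1 higher and 4 lower at an unadjusted p under 0.05, and the median was -0.11 (0.00 without P3 DKO replicate 1, and -0.17 without P3 Jmjd1aKO replicate 2). Sox3, a transcription factor of undifferentiated spermatogonia, was at 15.0 and 16.3 RPKM in P3 DKO and 11.5 and 10.7 RPKM in P3 Jmjd1aKO (log2 change 0.46 ± 0.13, limma adjusted p = 0.374). In 9 (28.1%) both P3 DKO libraries lay below both P3 Jmjd1aKO libraries, against 20.2% of all genes tested, and in 3 (9.38%) above, against 24.9%. Gfra1, the GDNF receptor of stem cells, was at 82.3 and 57.1 RPKM in P3 DKO and 67.9 and 47.7 RPKM in P3 Jmjd1aKO, which overlap. So do the values of Zbtb16, a repressor needed for stem cell upkeep, at 23.4 and 24.2 RPKM in P3 DKO and 22.7 and 24.1 RPKM in P3 Jmjd1aKO.

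Of 15 genes of differentiating spermatogonia none passed, with 1 higher and 2 lower at an unadjusted p under 0.05, and the median was 0.14. Stra8, which retinoic acid induces before meiosis, was at 21.3 and 20.7 RPKM in P3 DKO and 40.4 and 50.7 RPKM in P3 Jmjd1aKO, a log2 change of -1.07 ± 0.27 (limma adjusted p = 0.374). It was at 172 and 276 RPKM in P7 DKO and 61.0 and 56.0 RPKM in P7 Ctrl, so that the libraries without both genes were the lower at day 3 and the higher at day 7. The retinoic acid receptor gene Rara was at 11.3 and 15.0 RPKM in P3 DKO and 17.9 and 21.9 RPKM in P3 Jmjd1aKO, with a log2 change of -0.57 ± 0.16, which missed the threshold. Dnmt3b, a de novo DNA methyltransferase, had a log2 change of -0.32 ± 0.10 and did not pass.

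No other gene of the H3K9 pathway passed either. Of 26 tested beside the KDM3 family, 3 had an unadjusted p under 0.05, all higher, and the median was 0.04 (0.01 without P3 Jmjd1aKO replicate 2). Ehmt2 (G9a), a writer of the mark that the KDM3 enzymes remove, was at 162 and 173 RPKM in P3 DKO, 139 and 102 RPKM in P3 Jmjd1aKO, 104 and 111 RPKM in P3 Jmjd1bKO and 109 and 110 RPKM in P3 Ctrl. Both P3 DKO libraries lay above the other 6, and the log2 change was 0.49 ± 0.13 (limma adjusted p = 0.374). It was 0.71 without P3 Jmjd1aKO replicate 1, where Ehmt2 passed (limma adjusted p = 0.0471), and 0.27 without P3 Jmjd1aKO replicate 2 (limma adjusted p = 0.999).

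The member with the smallest p in that list, Phf10, is a subunit of a chromatin remodeller and no H3K9 enzyme. It was at 76.9 and 75.6 RPKM in P3 DKO and 59.98 and 56.9 RPKM in P3 Jmjd1aKO, a log2 change of 0.38 ± 0.09 (limma adjusted p = 0.374). Of the other methyltransferases none had an unadjusted p under 0.05. Suv39h1 lay apart and lower, at 28.7 and 27.8 RPKM in P3 DKO and 31.5 and 37.9 RPKM in P3 Jmjd1aKO (log2 change -0.28 ± 0.14). That change was smaller without P3 Jmjd1aKO replicate 2, the library with the highest Suv39h1 level of these. Ehmt1 was at 10.7 and 11.6 RPKM in P3 DKO and 11.3 and 13.8 RPKM in P3 Jmjd1aKO, and Setdb1 was at 55.8 and 54.6 RPKM in P3 DKO and 54.1 and 52.7 RPKM in P3 Jmjd1aKO. Of 24 Polycomb and H3K27 demethylase genes none passed, with 1 at an unadjusted p under 0.05, lower, and the median was -0.03 (-0.10 without P3 Jmjd1aKO replicate 2).

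Germline genes that H3K9 methylation is known to repress (Mage, Xlr and others) had no member that passed of 26, with 2 higher and 2 lower at an unadjusted p under 0.05. Their median was 0.15 (0.07 without P3 Jmjd1aKO replicate 2). In P3 DKO 10 (38.5%) lay apart and higher, against 24.9% of all genes tested, and 7 (26.9%) apart and lower, against 20.2%. Tuba3a, a testis tubulin on that list, was at 317 and 298 RPKM in P3 DKO and 395 and 416 RPKM in P3 Jmjd1aKO (log2 change -0.40 ± 0.11), and Magea5 at 18.1 and 15.996 RPKM in P3 DKO and 14.1 and 12.1 RPKM in P3 Jmjd1aKO (log2 change 0.36 ± 0.15). Neither passed.

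Of 25 genes of the piRNA pathway and DNA methylation none passed, and 2 had an unadjusted p under 0.05, both higher. In 9 (36.0%) the P3 DKO libraries lay apart and higher, against 24.9% of all genes tested, and in 2 (8%) apart and lower, against 20.2%. The median was 0.14, and 0.06 without P3 Jmjd1aKO replicate 2. Tdrd5, a Tudor protein of the germ granule, was at 59.3 and 56.1 RPKM in P3 DKO and 47.3 and 46.5 RPKM in P3 Jmjd1aKO (log2 change 0.29 ± 0.10).

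Among 15 targets of p53 none passed, and 2 had an unadjusted p under 0.05, both higher. Ccng1, cyclin G1, was at 27.6 and 35.1 RPKM in P3 DKO and 21.1 and 18.6 RPKM in P3 Jmjd1aKO (log2 change 0.63 ± 0.15, limma adjusted p = 0.374). Plk2, a polo-like kinase, was at 9.66 and 11.7 RPKM in P3 DKO and 6.45 and 6.56 RPKM in P3 Jmjd1aKO (log2 change 0.63 ± 0.18). The median was 0.15, and Cdkn1a, the p21 inhibitor, overlapped between the groups at 16.1 and 20.0 RPKM in P3 DKO and 21.9 and 18.5 RPKM in P3 Jmjd1aKO.

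Among the imprinted genes, none of 26 passed, with 3 higher and 1 lower at an unadjusted p under 0.05 and a median of 0.10. Peg10, a paternally expressed gene derived from a retrotransposon, was at 20.5 and 24.6 RPKM in P3 DKO, 12.7 and 13.5 RPKM in P3 Jmjd1aKO, 7.28 and 9.84 RPKM in P3 Jmjd1bKO and 7.72 and 9.41 RPKM in P3 Ctrl. Both P3 DKO libraries lay above all 6 others (log2 change 0.74 ± 0.16, limma adjusted p = 0.374). It was at 5.66 and 4.92 RPKM in P7 DKO and 3.59 and 3.56 RPKM in P7 Ctrl.

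Immediate early genes, which respond to growth signals and to handling of tissue, had a median of -0.23 with all libraries and -0.24 without P3 Jmjd1aKO replicate 2. None of 17 passed, with 1 higher and 1 lower at an unadjusted p under 0.05. In P3 DKO 7 (41.2%) lay apart and lower, against 20.2% of all genes tested, and 1 (5.88%) apart and higher, against 24.9%. The higher one was Atf3, at 2.57 and 2.30 RPKM in P3 DKO and 1.58 and 0.982 RPKM in P3 Jmjd1aKO (log2 change 0.60 ± 0.22, limma adjusted p = 0.383). Jund was at 49.8 and 50.8 RPKM in P3 DKO and 71.5 and 88.5 RPKM in P3 Jmjd1aKO (log2 change -0.65 ± 0.19), and Fos at 18.7 and 17.4 RPKM in P3 DKO and 24.3 and 45.4 RPKM in P3 Jmjd1aKO. The part of tissue handling in these values was not tested.

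The remaining lists gave no member that passed. Their medians were 0.19 for germ cell genes (21 tested; 3 higher and 2 lower at an unadjusted p under 0.05), 0.05 for pluripotency and primordial germ cell genes (20; 3 and 2), 0.12 for meiotic prophase (26; 1 and 0), 0.16 for hypoxia and glycolysis (24; 0 and 0), 0.14 for interferon and MHC class I (21; 3 and 1), 0.13 for the retinoic acid pathway (18; 1 and 3) and -0.01 for collagens, laminins and integrins (26; 0 and 0). Without P3 Jmjd1aKO replicate 2 the medians were 0.07 for germ cell genes, -0.03 for pluripotency genes, 0.07 for meiotic prophase, 0.08 for hypoxia and glycolysis and 0.02 for collagens, laminins and integrins.

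Of the 4 libraries, the summed Sertoli, Leydig, stromal and erythroid markers were highest in P3 Jmjd1aKO replicate 2, as given above. The Sertoli list had a median of -0.99 over 26 genes, with 25 below 0, and of 0.16 without P3 Jmjd1aKO replicate 2, with 22 above 0. The medians with all libraries and without that one were -0.40 and 0.07 for stromal and peritubular cells (15 genes), -0.28 and -0.06 for Leydig cells (7), -0.31 and -0.08 for leukocytes (8) and 0.24 and -0.05 for endothelial cells (13). No member of these lists passed, and 0 Sertoli genes had an unadjusted p under 0.05. Alas2 was the 1 erythroid gene of 10 tested, at 2.90 and 3.24 RPKM in P3 DKO and 3.36 and 3.92 RPKM in P3 Jmjd1aKO.

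**Figure D5:**
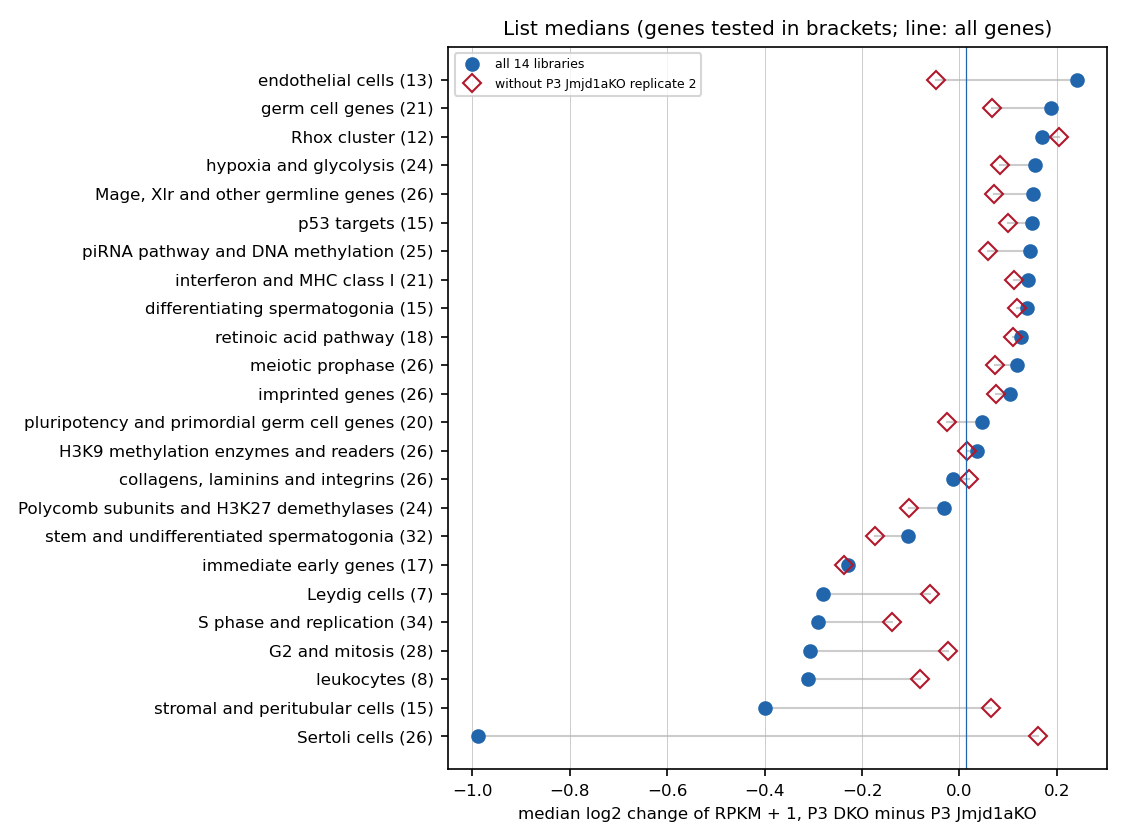
Median change of log2(RPKM + 1), P3 DKO minus P3 Jmjd1aKO, for each list with 7 or more genes tested (number in brackets), with all 14 libraries (filled circles) and without P3 Jmjd1aKO replicate 2 (open diamonds); the vertical line is the median of all genes. The Sertoli median moves from the far left to 0.16, while those of the Rhox cluster and of immediate early genes stay near 0.17 and -0.23.

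The number of genes at an unadjusted p under 0.05 did not give a stable order of the 2 losses, and the counts were not tested against each other. With all libraries there were 1683 (11.9%) for P3 DKO against P3 Jmjd1aKO and 254 (1.80%) for P3 Jmjd1bKO against P3 Ctrl, with the same 14106 genes and the same estimate of spread. With 1 library left out the first ran from 423 to 3097 and the second from 58 (without P3 Jmjd1bKO replicate 2) to 2514 (without P3 Jmjd1bKO replicate 1), so that the ranges overlap. The difference between the 2 losses was tested gene by gene, and 3 passed (0.0213%), 1 higher and 2 lower, with 2143 at an unadjusted p under 0.05 (707 to 4169 with 1 library left out). Mir6898 and Mir345 were among them, both listed at 0 in 1 group.

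The 2 comparisons share no library. Across the 14106 genes their log2 changes had a Pearson correlation of -0.36 and a Spearman correlation of -0.63, which are descriptions, since genes are not independent replicates. Without replicate 2 of P3 Jmjd1aKO and of P3 Jmjd1bKO, the 2 libraries high in Sertoli transcripts, the values were -0.13 and -0.41. Pou5f1, Nanos3 and Plvap, lower in P3 DKO, had log2 changes of 0.13 ± 0.22, 0.13 ± 0.22 and -0.02 ± 0.19 on loss of Jmjd1b beside 1 copy of Jmjd1a. The difference for each was -1.35 ± 0.32, -1.33 ± 0.31 and -1.09 ± 0.26, and none passed (limma adjusted p = 0.302 for each). The difference for Nanos3 passed without P3 Jmjd1bKO replicate 1 (-1.71, limma adjusted p = 0.0477).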

How the data were processed

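Per the labels' protocols, an AllPrep DNA/RNA Micro kit served for extraction and a TruSeq Stranded mRNA LT kit for the libraries. The deposited values are RPKM per gene symbol, made by the authors; TopHat2 2.1.1, Cufflinks 2.1.1 and the mm10 genome are named per the submitters' processing notes, and their roles, the annotation and strand counting are not given in the sources used here. RPKM carry a scale set by all transcripts of a library, RNA of other cells included. Files held no counts, and depth (13500000 to 50900000 fragments over the 14 libraries) was estimated from steps between low values, with 65.7 to 74.2% of genes within 0.2 of a whole number against 40% by chance, so no count test was run.

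Values were analysed as log2(RPKM + 1), with no further scaling, by limma 3.58.1 (trended eBayes, 1 coefficient per group, 7 residual degrees of freedom) in R 4.3.3. Two-sided p-values were adjusted by Benjamini-Hochberg over 14106 genes, threshold 0.05. An exact permutation test of 2 against 2 libraries cannot reach that threshold. The script was tested on simulated data. Replicate numbers were not treated as pairs.

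Named are Kdm3a, Kdm3b, the 10 largest rises and falls past the threshold with groups apart, filled up by genes at an unadjusted p under 0.05 with a mean of 5 RPKM or more, genes past the threshold in the difference of the losses, and the 2 members with the smallest p of each list; small RNA and predicted loci were named only among genes past the threshold. Cdk1, Gfra1, Zbtb16, Pecam1, Ehmt1, Setdb1, Cdkn1a, Fos, Rhox10, Sox3, Suv39h1, Cdc6 and Mcm5 fall outside this rule and were chosen after their values were seen. A gene past the threshold and a list member are not reported here. The comparison, members and lists were chosen with earlier results of these data known. Coordinates are from GENCODE M21 (GRCm38), which held 95.8% of the symbols.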

Additional observations from a re-analysis of the deposited data

Results flagged for a closer look

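In Mir6898 and Mir345 the change on loss of Jmjd1b differed between the background without Jmjd1a and that with 1 copy of it, by the test of the difference itself (limma adjusted p under 0.05). The differences, on the log2(RPKM + 1) scale, were -5.47 for Mir6898 (adjusted p = 2.03e-07) and 4.24 for Mir345 (adjusted p = 0.00251). Mir6898 is listed at 0 in all libraries but those of P3 Jmjd1aKO and Mir345 in all but those of P3 DKO, so these are fitted differences and not fold changes.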

How the results depend on the processing

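The number of genes passing in P3 DKO against P3 Jmjd1aKO was 5 and moved to 170 (152 higher, 18 lower) with no filter on low values, 20 (13 higher, 7 lower) with the libraries of the 2 groups alone, 8 with the 10 day 3 libraries, 8 with the Sertoli level as a covariate, 2 without small RNA loci and 1 without entries listed at 0. It was 4 to 11 with 1 library left out, with 11 without P3 DKO replicate 2 or without P3 Jmjd1aKO replicate 1. In P3 Jmjd1bKO against P3 Ctrl it was 1, and 7 with no filter, 3 with the filter over 14 libraries, 8 with the libraries of the 2 groups alone, 3 with the day 3 libraries, 2 without both libraries high in Sertoli transcripts, 0 in limma without small RNA loci or entries at 0 (252 and 245 at an unadjusted p under 0.05), and 1 to 5 with 1 library left out. For the difference of the losses it was 3, and 72 (60 higher, 12 lower) with no filter, 5 with the filter over 14 libraries, 1 without small RNA loci, 0 in limma without entries at 0 (2137 at an unadjusted p under 0.05), and 3 to 7 with 1 library left out. The cause was not tested beyond what each setting removes.

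With the replicate number as a block the counts were 5, 1 and 3, as without it. Deviations of same-numbered libraries correlated at 0.115 between P3 DKO and P3 Jmjd1aKO and at -0.163 to 0.628 over all pairs of groups. The highest was between P3 Jmjd1aKO and P3 Jmjd1bKO, whose second replicates were both high in Sertoli transcripts. P3 Ctrl correlated with these groups at 0.248 and 0.328. A factor shared by replicate number was not tested beyond the block, and the numbers were not taken to pair samples. No gene named by the rule reversed, and the other genes quoted were not part of that check. The median changed sign under 1 or more settings for the lists of KDM3, H3K9, stem cell, pluripotency, interferon, Sertoli, stromal, endothelial, collagen and Polycomb genes, and its sign held in all 19 for the others, except that the erythroid list had no gene under the filter at 5 RPKM and its sign held in the settings that gave a value. Of the named genes' values under alternatives, 4 (all Exoc3l) lost and 6 (Kdm3b, Cd209c, Dbhos, Fxyd3, Ehmt2, Pou5f1) gained the threshold, and 1161 kept their side. With 1 library left out, the lone library of its group is assumed to vary like the others. With 2 libraries a group and an estimated 26700000 fragments in the shallowest of the 4, small differences of single genes were not detectable at this depth and number.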
